A study of Mus musculus with 12 samples.

Results

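The SLC25 family is the group of mitochondrial carrier proteins, and 44 of its genes, measured by 93 probe sets, were followed here in hearts of mice with and without a dominant-negative MCU. MCU forms the pore of the mitochondrial calcium uniporter, through which calcium enters the matrix. The genes were chosen by name: a probe set counted if its annotation gave 1 gene symbol and that symbol was Slc25a followed by a number. Each gene was read from its brightest probe set, the one with the highest mean over the 12 arrays, and its other probe sets were used as a check. Of the 18193 genes represented on the array with 1 symbol, these 44 are members, and 38 of them passed the filter on dim probe sets and were tested.

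RNA was taken from whole excised hearts of CD1 mice, an outbred stock. The 4 groups were DN-MCU adult, WT adult, DN-MCU neonate and WT neonate, with 3 arrays each. DN-MCU mice expressed the dominant-negative construct and WT mice were their wild-type littermates. Adults were male and 42 days old, while neonates were 1 day old with no sex given. The sources used here do not give the promoter that drives the construct. All values are log2 signals, so a difference of 1 is a doubling of signal, and values after ± are SD over 3 arrays. Levels are compared between groups within a probe set, not between genes, because probe sets differ in brightness. In whole-heart RNA, fewer cells of a type and less RNA per cell cannot be told apart.

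SLC25 carriers sit mostly in the inner mitochondrial membrane, which is otherwise closed to charged metabolites, and each exchanges or imports a narrow set of substrates. In heart muscle the ADP/ATP carriers deliver the ATP made by oxidative phosphorylation, the phosphate carrier returns phosphate to ATP synthase, and the aspartate-glutamate and oxoglutarate carriers run the malate-aspartate shuttle for cytosolic NADH. Fatty acids enter as acylcarnitines through the carnitine carrier, and iron for heme and iron-sulfur clusters enters through the mitoferrins. The aspartate-glutamate carriers bind calcium on their side facing the cytosol and intermembrane space, outside the matrix that MCU supplies. So do the ATP-Mg/Pi carriers Slc25a23, Slc25a24 and Slc25a25.

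Promoters are shown for 3 of the 4 carriers called in adults, Slc25a39, Slc25a5 and Slc25a11, and for Slc25a33, which did not pass but was separated by genotype at both ages. They were picked after their values were seen, and the fourth called carrier, Slc25a26, is named only. RefSeq promoter entries (build GRCm38.p6) were found for 34 of the 44 members. The 250 bases before the annotated start are printed 5′ to 3′ on the gene's own strand, in lower case, with capitals at matches to any of 4 motifs searched on both strands. The windows are chr11:102407518-102407767 (minus strand) for Slc25a39, chrX:36795347-36795596 (plus strand) for Slc25a5, chr11:70647040-70647289 (minus strand) for Slc25a11 and chr4:149774268-149774517 (minus strand) for Slc25a33. The Slc25a39 and Slc25a11 windows lie inside the genes' annotated spans, chr11:102402969-102408675 and chr11:70644019-70647531, while the Slc25a5 and Slc25a33 windows end just before the first annotated base of the gene.
Slc25a39: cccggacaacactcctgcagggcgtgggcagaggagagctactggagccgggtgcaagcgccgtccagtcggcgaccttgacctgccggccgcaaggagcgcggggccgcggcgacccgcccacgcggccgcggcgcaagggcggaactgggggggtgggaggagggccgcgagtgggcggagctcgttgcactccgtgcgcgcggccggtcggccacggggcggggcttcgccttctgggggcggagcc
Slc25a5: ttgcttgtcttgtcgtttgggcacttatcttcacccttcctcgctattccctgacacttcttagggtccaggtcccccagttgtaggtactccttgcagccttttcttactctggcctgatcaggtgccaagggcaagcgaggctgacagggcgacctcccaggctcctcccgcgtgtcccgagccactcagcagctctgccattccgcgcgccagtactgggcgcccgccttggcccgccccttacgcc
Slc25a11: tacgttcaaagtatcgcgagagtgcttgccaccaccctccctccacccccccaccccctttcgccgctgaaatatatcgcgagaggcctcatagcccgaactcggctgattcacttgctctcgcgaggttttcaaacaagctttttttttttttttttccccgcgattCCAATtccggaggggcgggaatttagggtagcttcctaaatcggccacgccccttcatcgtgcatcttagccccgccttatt
Slc25a33: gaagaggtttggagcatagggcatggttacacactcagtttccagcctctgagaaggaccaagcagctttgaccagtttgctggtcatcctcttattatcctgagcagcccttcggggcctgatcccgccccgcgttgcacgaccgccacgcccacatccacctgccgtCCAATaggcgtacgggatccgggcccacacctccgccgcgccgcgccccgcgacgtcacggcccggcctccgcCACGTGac
The motifs were TGATGNAA (the core of the C/EBP-ATF response element), CACGTG (an E-box), AAGGTCA (a half-site for estrogen-related receptors) and CCAAT (the CCAAT box). CCAAT was found in the Slc25a11 and Slc25a33 windows and CACGTG in the Slc25a33 window, and none of the 4 motifs was found in the Slc25a39 or Slc25a5 window. Among 32851 promoters of this length, 3.45% held TGATGNAA, 6.02% CACGTG, 4.08% AAGGTCA and 33.8% CCAAT. Among the 46 promoter entries of the SLC25 family the counts were 0, 8, 1 and 21. A match describes letters and is not a measured binding site.

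The ages were far apart on the first principal component (71.7% of the variance), and adult arrays were more scattered than neonatal ones. DN-MCU adult array 3 lay at 121.4 on the second component, against -50.9 to 24.4 for the other 11 arrays. Over the 24176 probe sets tested, the median SD within a group was 0.40 in DN-MCU adults, 0.23 in WT adults, 0.14 in DN-MCU neonates and 0.13 in WT neonates. One Mcu probe set read 8.44 to 10.41 in the 6 DN-MCU hearts and 2.45 to 4.55 in the 6 WT hearts, and a second one read 7.39 to 8.18 over all 12. The 10 cardiomyocyte markers were measured in every group, with summed linear signals of 352611 to 371723 in DN-MCU adults, 366686 to 401389 in WT adults, 294382 to 318660 in DN-MCU neonates and 304190 to 312173 in WT neonates. Some markers of other cells moved with adult genotype. All 6 endothelial markers had lower means in DN-MCU adults without any of them passing, with sums of 3230 to 3984 in DN-MCU adults and 4000 to 4434 in WT adults, which did not overlap. Of 3 hepatocyte markers Ttr rose, at 5.88, 7.26 and 7.95 in DN-MCU adults and 3.81, 3.65 and 4.09 in WT adults (adjusted p = 0.00314), while Alb and Apoa1 stayed near background, at 2.04 to 2.39 over all 12 arrays. The 3 brown adipocyte markers summed to 2258 to 4612 in DN-MCU adults and 1343 to 3405 in WT adults. Among them Ucp1 was lowest in DN-MCU adult array 3 (2.36, against 7.11 to 10.72 in the other 5 adult hearts), while Cidea was not (11.13, against 10.23 to 11.51). The part of these cells in the adult results was not tested.

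In adult hearts 4 carriers passed the test: Slc25a39 and Slc25a5 were higher in DN-MCU, and Slc25a26 and Slc25a11 were lower. That is 10.5% of the 38 tested members, beside 4.77% of all 24176 probe sets tested (2.82% higher and 1.95% lower) at an adjusted p under 0.05 (limma, Benjamini-Hochberg). All 4 calls were lost when only adult arrays were fitted, with 112 probe sets called in all, and under a block on the neonatal replicate number. The adult fit has fewer arrays and takes its error from the adults alone, whose spread was larger. The median adult difference was -0.11 over the members and -0.02 over all probe sets.

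Slc25a39, which is needed for glutathione uptake into mitochondria, read 14.34, 14.07 and 14.76 in DN-MCU adults and 13.64, 13.45 and 13.39 in WT adults. Every DN-MCU adult heart was above every WT adult heart, and DN-MCU neonates (13.50, 13.68 and 13.41) and WT neonates (13.70, 13.71 and 13.56) both lay near the WT adult level. The adult difference was 0.89 (SE 0.18, adjusted p = 0.0168), a 1.86-fold higher signal. Of its 5 probe sets 4 passed the filter, and these rose by 0.89 to 1.21 in adults, each with no overlap and an adjusted p of 0.0376 or lower. Of these 4, 3 carry the array's suffix for probes that may match other sequences, and the one without it gave 0.92 (SE 0.16, adjusted p = 0.00717). The adult call was lost without WT adult array 2 (adjusted p = 0.0664) or 3 (0.0726), with adult arrays alone (0.225), with the replicate number as a block within each age (0.0767) and with the neonatal block (0.0505). Its paralog Slc25a40, also linked to glutathione transport, read 7.10, 7.50 and 5.93 in DN-MCU adults and 7.26, 7.26 and 7.35 in WT adults (difference -0.45, SE 0.31, adjusted p = 0.514), and the difference was 0.01 without DN-MCU adult array 3.

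Slc25a26 carries S-adenosylmethionine, the methyl donor, into the matrix. It read 7.40, 7.97 and 8.0 in DN-MCU adults and 8.45, 8.94 and 9.18 in WT adults. The adult groups did not overlap, and DN-MCU adults were close to the neonatal range, which ran from 7.35 to 7.72 in DN-MCU and from 7.39 to 7.50 in WT neonates. The adult difference was -1.07 (SE 0.22, adjusted p = 0.0196). The called probe set carries an array suffix for probes that may match other sequences. A second probe set, without such a suffix, gave -0.95 without passing (adjusted p = 0.0641). The call was also lost with adult arrays alone (0.235), with the neonatal block (0.0571) and without DN-MCU adult array 1 (0.0546), WT adult array 2 (0.0766) or WT adult array 3 (0.0825).

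Slc25a11, the oxoglutarate carrier that exchanges oxoglutarate for malate, read 12.36, 12.79 and 12.79 in DN-MCU adults and 13.28, 13.24 and 13.21 in WT adults. All 3 DN-MCU hearts were below the narrow WT range. The difference was -0.60 (SE 0.15, adjusted p = 0.044), and the gene had 1 probe set. The call was lost on quantile normalization (0.0598), with adult arrays alone (0.325), with the within-age (0.152) and neonatal (0.105) blocks, and without any of DN-MCU adult array 1 and WT adult arrays 1, 2 and 3 (0.0852 to 0.129). Leaving out any neonatal array also ended it (0.0597 to 0.0788).

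**Figure D1:**
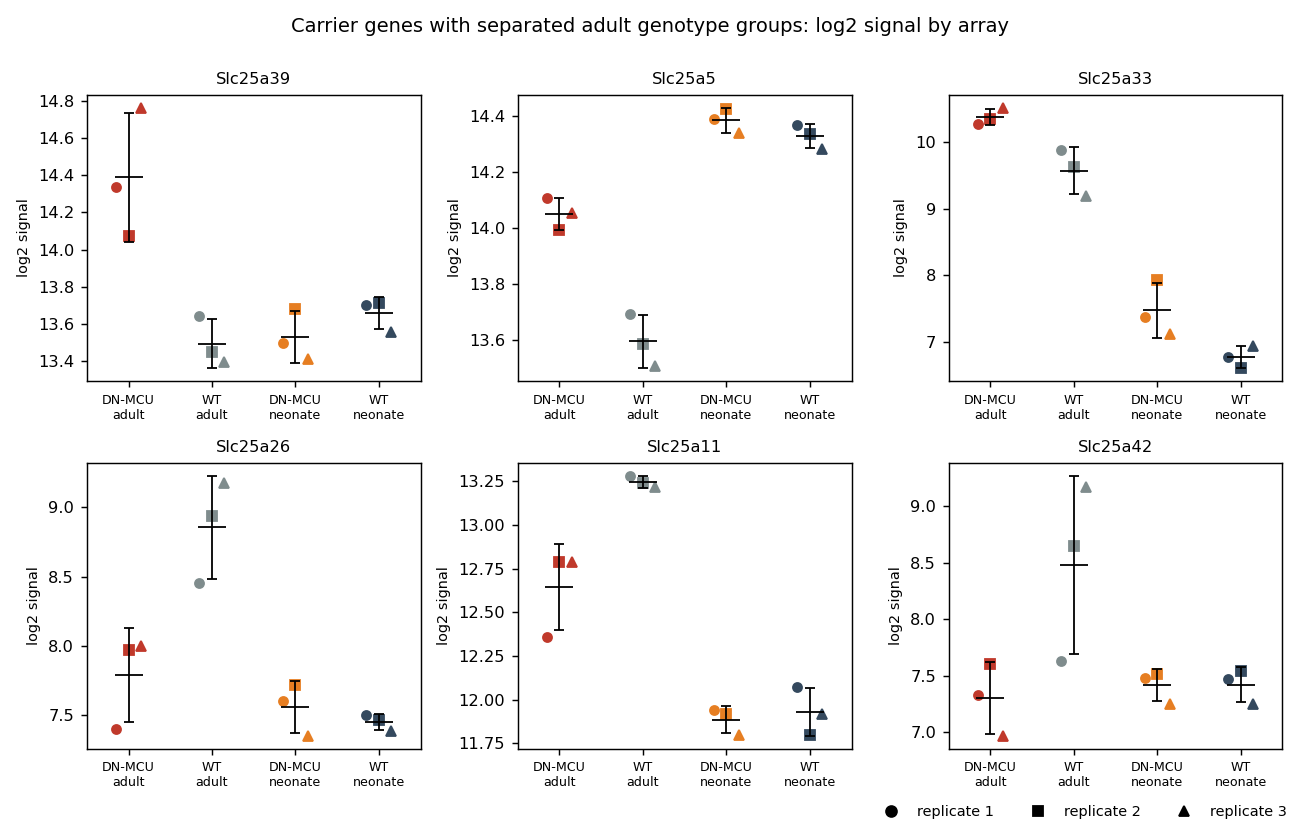
Log2 signal (vertical axis) by array in the 4 groups for Slc25a39, Slc25a5, Slc25a33, Slc25a26, Slc25a11 and Slc25a42, 1 panel each. Their adult genotype groups did not overlap. The other separated carriers, Slc25a4, Slc25a13 and Slc25a24, are shown with the substrate groups. Points are arrays with a marker shape per replicate number, and black bars are mean ± SD. The 3 DN-MCU adult points of Slc25a39 and Slc25a5 lie above the WT adult points, and those of Slc25a26 and Slc25a11 below.

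In all, 3 members had higher adult DN-MCU values with no overlap (7.89% of 38, against 8.70% of all probe sets) and 6 had lower ones (15.8%, against 8.46%). Slc25a33, a pyrimidine nucleotide carrier, was among the higher ones, at 10.27, 10.34 and 10.51 in DN-MCU adults and 9.89, 9.63 and 9.19 in WT adults. It did not pass (0.80, SE 0.23, adjusted p = 0.0842), nor did it under any of the alternatives run. Slc25a42, which carries coenzyme A, was lower at 7.33, 7.61 and 6.97 in DN-MCU adults and 7.63, 8.65 and 9.18 in WT adults. Here WT adult array 1 lay far below the other 2 WT hearts, the difference was -1.18 (SE 0.33, adjusted p = 0.073), and without that array it was -1.61 (adjusted p = 0.0046). The separated groups of Slc25a4, Slc25a13 and Slc25a24 are described with their substrates.

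Of the 3 ADP/ATP carriers, 1 passed in adults. Slc25a5, the ANT2 isoform found in many dividing tissues, read 14.11, 13.99 and 14.05 in DN-MCU adults and 13.70, 13.59 and 13.51 in WT adults. Groups were apart by more than their spread, with a difference of 0.45 (1.37-fold, SE 0.11, adjusted p = 0.0449), and neonates of both genotypes were higher still, at 14.39, 14.42 and 14.34 in DN-MCU and 14.37, 14.33 and 14.28 in WT. All 8 of its probe sets had positive adult differences, 0.43 to 0.88, and 5 of them passed. Of these 8, 6 carry the array's suffix for probes that may also match other sequences, and the brightest without it gave 0.58 (adjusted p = 0.0275). The call of the brightest one ended on quantile normalization (0.053), with adult arrays alone (0.371), with both blocks (0.176 and 0.118), without DN-MCU adult array 1 (0.105), WT adult array 2 (0.14) or 3 (0.169), and without any neonatal array (0.0708 to 0.0823).

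Slc25a4, the ANT1 isoform of heart and skeletal muscle, read 15.29, 15.40 and 15.31 in DN-MCU adults and 15.41, 15.47 and 15.46 in WT adults. In neonates it read 15.42, 15.45 and 15.31 in DN-MCU and 15.29 in each of the 3 WT hearts. Values therefore separated by genotype at both ages in opposite directions, but by only -0.11 (SE 0.11, adjusted p = 0.652) in adults and 0.10 (SE 0.11, adjusted p = 1) in neonates, and the difference of these effects was -0.22 (SE 0.15, adjusted p = 0.801). This probe set sits close to the brightest value on any array, 15.93. All 4 Slc25a4 probe sets were lower in adult DN-MCU hearts with no overlap, by -1.06 to -0.11, and none passed. Slc25a31, an isoform best known from testis, was under the filter level in all 6 adult hearts, at 2.72 to 2.83 in DN-MCU and 2.55 to 2.96 in WT. It read 7.06, 3.68 and 6.65 in DN-MCU neonates and 4.42, 5.45 and 5.56 in WT neonates.

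**Figure D2:**
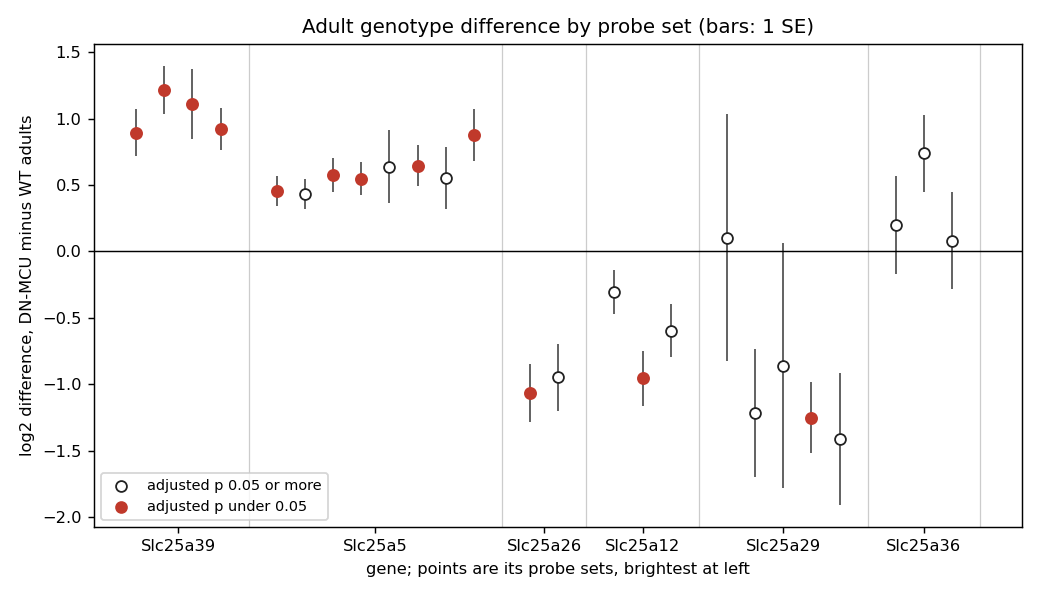
Adult log2 difference, DN-MCU minus WT, with its SE for each tested probe set of Slc25a39, Slc25a5, Slc25a26, Slc25a12, Slc25a29 and Slc25a36. These were picked from the 23 carriers with more than 1 probe set. Red marks an adjusted p under 0.05. The 4 tested Slc25a39 probe sets and the 8 Slc25a5 probe sets all lie above 0.

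Of the 4 ATP-Mg/Pi carriers 3 were tested in adults and none passed. These 3, Slc25a23, Slc25a24 and Slc25a25, load adenine nucleotides into the matrix in response to cytosolic calcium. Slc25a23 read 7.72, 7.39 and 8.54 in DN-MCU adults and 7.61, 7.12 and 6.62 in WT adults, overlapping by array (0.77, SE 0.31, adjusted p = 0.218), with a difference of 0.44 without DN-MCU adult array 3. Slc25a24 read 8.21, 8.28 and 6.96 in DN-MCU adults and 8.39, 8.32 and 8.40 in WT adults. These did not overlap, but the difference of -0.56 (SE 0.29, adjusted p = 0.348) was -0.13 without DN-MCU adult array 3. Slc25a25 lay near background in all 12 hearts, at 3.51 to 3.72, and Slc25a41 was not tested.

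Both aspartate-glutamate carriers had lower mean signals in adult DN-MCU hearts, and neither passed. Slc25a12 (aralar, the form of muscle and brain) read 11.64, 11.89 and 12.21 in DN-MCU adults and 12.31, 12.29 and 12.05 in WT adults (-0.31, SE 0.17, adjusted p = 0.377), and the difference was -0.17 without DN-MCU adult array 1. Its 2 dimmer probe sets gave -0.96 (SE 0.21, adjusted p = 0.0249) and -0.60 (SE 0.20, adjusted p = 0.132), each with no overlap, so the result for this gene depends on the probe set read. Slc25a13 (citrin, the main liver form) read 10.81, 11.07 and 11.21 in DN-MCU adults and 11.44, 11.52 and 11.39 in WT adults. All its DN-MCU hearts were below all WT hearts (-0.42, SE 0.13, adjusted p = 0.116), and the difference was -0.51 without DN-MCU adult array 3 (adjusted p = 0.0293). Of the 4 malate-aspartate shuttle enzymes, 0 passed in adults, and their median difference was -0.11.

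The carnitine-acylcarnitine carrier Slc25a20 read 11.57, 11.89 and 12.27 in DN-MCU adults and 12.41, 12.35 and 12.14 in WT adults. The groups overlapped through DN-MCU adult array 3 (-0.39, SE 0.19, adjusted p = 0.326, or -0.22 without DN-MCU adult array 1), and a second probe set gave -0.53 with no overlap (SE 0.15, adjusted p = 0.086). In neonates the 3 DN-MCU hearts (12.10, 12.30 and 11.81) spanned the WT ones (12.04, 12.12 and 12.02). Of 6 carnitine system genes 5 were tested, 0 passed in adults, and their median difference was -0.15.

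The mitoferrins import iron. Slc25a37 (mitoferrin-1, needed in red cell precursors) read 8.70, 8.76 and 9.10 in DN-MCU neonates and 9.58, 10.50 and 9.16 in WT neonates. It was the 1 member of 38 lower with no overlap in neonates (2.63%, against 5.13% of all probe sets), with a difference of -0.89 (SE 0.37, unadjusted p = 0.0345, adjusted p = 1) that was -0.51 without WT neonate array 2. Erythroid markers also separated there: the summed linear signal of the 6 of 8 with a probe set, of which 2 passed the filter, was 436 to 679 in DN-MCU neonates and 738 to 1626 in WT neonates. Alas2, the erythroid heme enzyme, read 8.02, 8.24 and 8.68 in DN-MCU neonates and 9.67, 9.93 and 8.95 in WT neonates, while the 5 epicardial and mesothelial markers summed to 648 to 901 in DN-MCU neonates and 1280 to 2266 in WT neonates. The part of these cells in the Slc25a37 values was not tested. In adults Slc25a37 read 7.81, 8.48 and 8.83 in DN-MCU and 8.73, 7.86 and 8.35 in WT, with full overlap (0.06, SE 0.37). Slc25a28 (mitoferrin-2, the broadly expressed form) read 8.39, 8.51 and 9.51 in DN-MCU adults and 8.48, 8.39 and 8.51 in WT adults, and again DN-MCU adult array 3 alone stood apart (0.34, SE 0.25, adjusted p = 0.543, or -0.01 without it). Of 11 iron and heme genes 9 were tested and 1 passed in adults, Alas1, the housekeeping first enzyme of heme synthesis. Alas1 read 10.98, 11.32 and 11.69 in DN-MCU adults and 12.43, 12.24 and 12.13 in WT adults (-0.94, SE 0.18, adjusted p = 0.0168), which was lost with adult arrays alone (0.215), with the within-age (0.108) and neonatal (0.057) blocks and without WT adult array 2 (0.056).

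Of 7 amino acid carriers 5 were tested, and none passed between genotypes at either age. The glutamate carrier Slc25a22 read 6.37, 6.49 and 7.47 in DN-MCU adults and 7.17, 7.08 and 7.17 in WT adults. Only array 3 of the DN-MCU adults was in or above the WT range, and the difference of -0.37 (SE 0.26, adjusted p = 0.52) was -0.71 without it (adjusted p = 0.0192). Slc25a29, which carries basic amino acids such as arginine and lysine, read 4.79, 7.80 and 9.29 in DN-MCU adults and 6.86, 6.19 and 8.50 in WT adults. With this scatter the difference of 0.11 had an SE of 0.93, while its 4 other probe sets gave -1.41 to -0.86, of which 1 passed (-1.25, SE 0.27, adjusted p = 0.0235). Slc25a38, a glycine carrier needed for heme synthesis, overlapped between genotypes at 6.81, 7.06 and 7.69 in DN-MCU adults and 7.35, 7.08 and 7.07 in WT adults. The ornithine carrier Slc25a15 read 7.78, 8.0 and 8.18 in DN-MCU adults and 8.62, 8.11 and 8.16 in WT adults (-0.31, SE 0.16, adjusted p = 0.358), and Slc25a44, a branched-chain amino acid carrier, differed by 0.10 (SE 0.15), with -0.39 (SE 0.70) and 0.07 (SE 0.25) on its other probe sets.

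**Figure D3:**
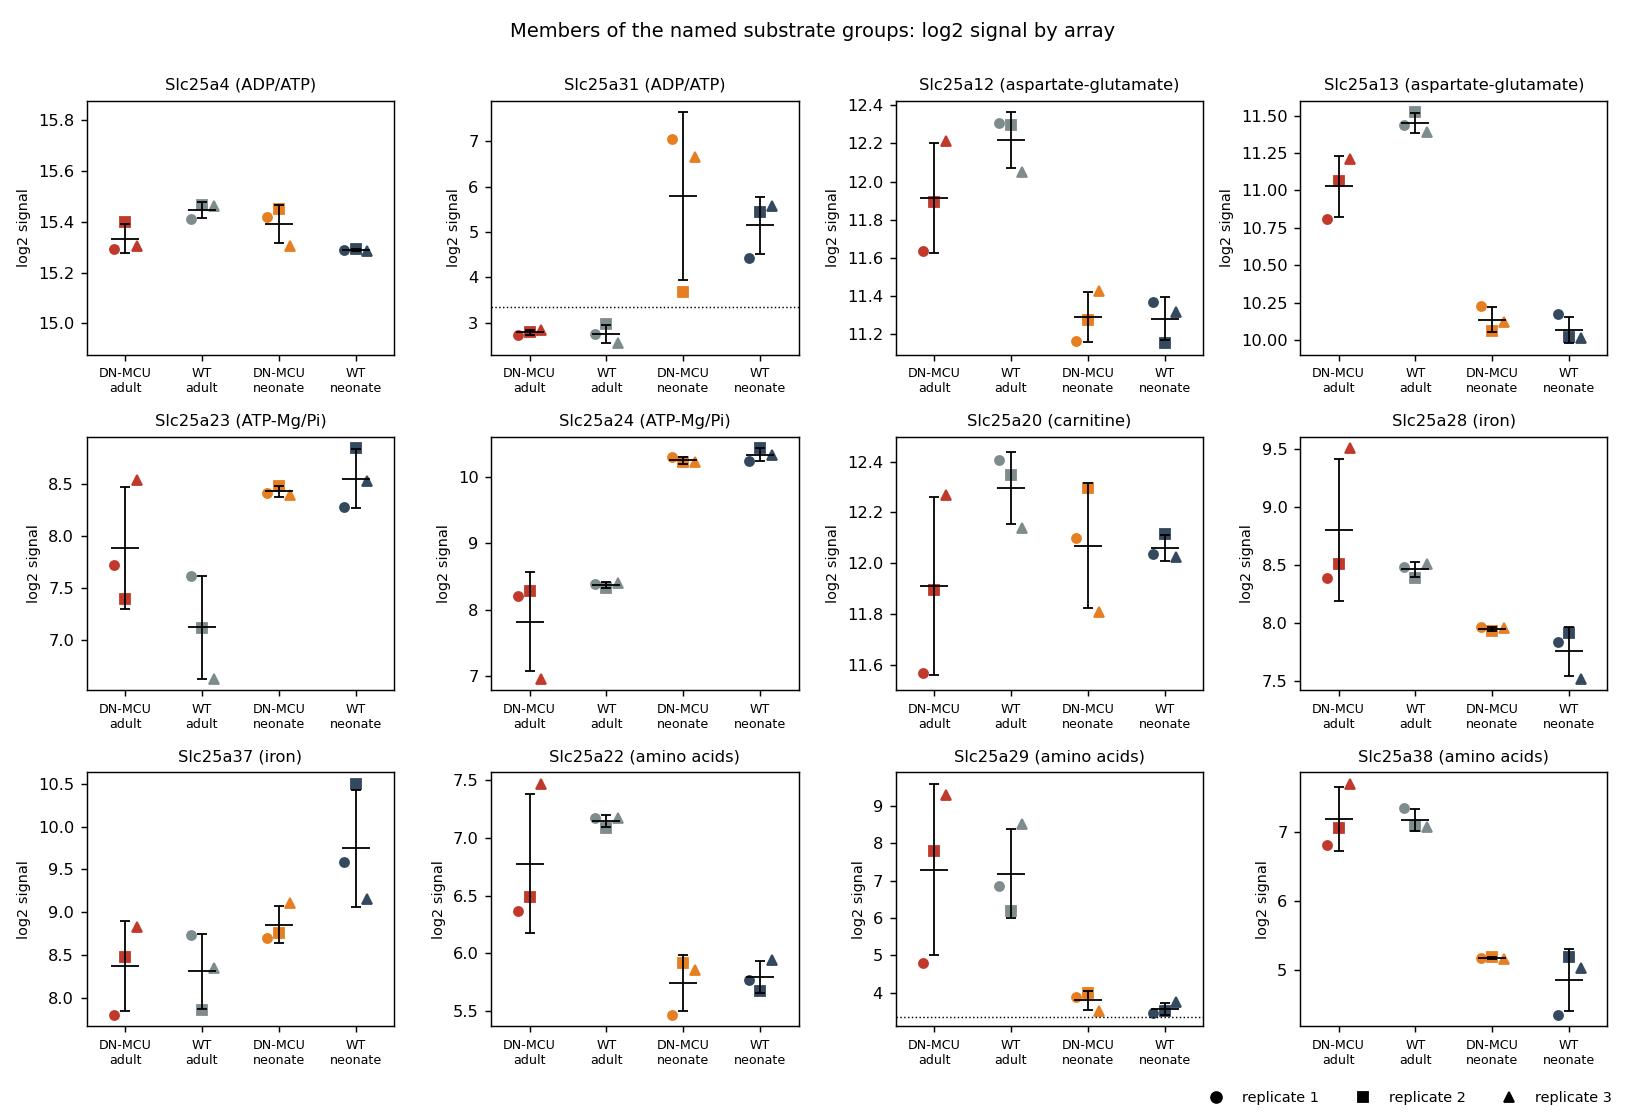
Log2 signal (vertical axis) by array in the 4 groups for 12 of the tested carriers of the 6 substrate groups, 1 panel each. Marker shapes are replicate numbers and black bars are mean ± SD. A dotted line marks the filter level of 3.35 in panels whose range includes it. DN-MCU adult array 3 lies apart from the other 2 DN-MCU adult arrays for Slc25a24, Slc25a28 and Slc25a22.

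Among the other members none passed between genotypes at either age. Slc25a34, whose substrate is not named here, read 9.12, 9.30 and 10.67 in DN-MCU adults and 10.54, 10.59 and 10.66 in WT adults. DN-MCU adult arrays 1 and 2 were well below all WT hearts and array 3 was above them (-0.90, SE 0.33, adjusted p = 0.176). Without array 3 the difference was -1.39 (adjusted p = 0.000682). The citrate carrier Slc25a1 read 7.39, 7.07 and 7.03 in DN-MCU adults and 7.43, 6.49 and 6.59 in WT adults, and its difference of 0.33 (adjusted p = 0.509) was 0.63 without WT adult array 1 (adjusted p = 0.0478). The phosphate carrier Slc25a3 averaged 14.70 ± 0.15 in DN-MCU adults and 14.79 ± 0.14 in WT adults (-0.09, SE 0.14). The 6 members that did not pass the filter, Slc25a2, Slc25a18, Slc25a41, Slc25a47, Slc25a48 and Slc25a54, read 2.16 to 4.46 over all arrays.

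In neonatal hearts 0 of 38 carriers passed (limma), beside 0.0165% of all probe sets, and 2 had an unadjusted p under 0.05. These were Slc25a37, lower in DN-MCU, and Slc25a33. Slc25a33 read 7.37, 7.93 and 7.12 in DN-MCU neonates and 6.77, 6.61 and 6.94 in WT neonates, with no overlap (0.70, SE 0.23, unadjusted p = 0.0119, adjusted p = 1). Its adult and neonatal differences were 0.80 and 0.70, and the difference between them was 0.10 (SE 0.33, adjusted p = 0.975). In all, 6 members were higher without overlap in DN-MCU neonates (15.8%, against 7.51% of all probe sets): Slc25a4, Slc25a28, Slc25a30, Slc25a32, Slc25a33 and Slc25a40. The median neonatal difference was 0.04 over members and 0.01 over all probe sets.

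The genotype effects of adults and neonates were then compared directly, as the adult difference minus the neonatal one. None of the 38 members passed (limma), beside 0.786% of all probe sets, and 7 had an unadjusted p under 0.05. Slc25a39 had the largest positive value, 1.02 (SE 0.25, unadjusted p = 0.00194, adjusted p = 0.124), and of its 3 other tested probe sets 2 passed (1.40, adjusted p = 0.04, and 1.44, adjusted p = 0.0155). Slc25a26 (-1.17, SE 0.31, adjusted p = 0.155), Slc25a42 (-1.17, SE 0.46, adjusted p = 0.437) and Slc25a34 (-1.16, SE 0.47, adjusted p = 0.458) had the largest negative values. Slc25a39 passed without DN-MCU adult array 2 (adjusted p = 0.0405), and Slc25a39 (0.0489) and Slc25a34 (0.00415) without DN-MCU adult array 3. An effect that passed in adults and not in neonates is thus not shown to differ between ages for any of the 4 called carriers when the brightest probe set is read.

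**Figure D4:**
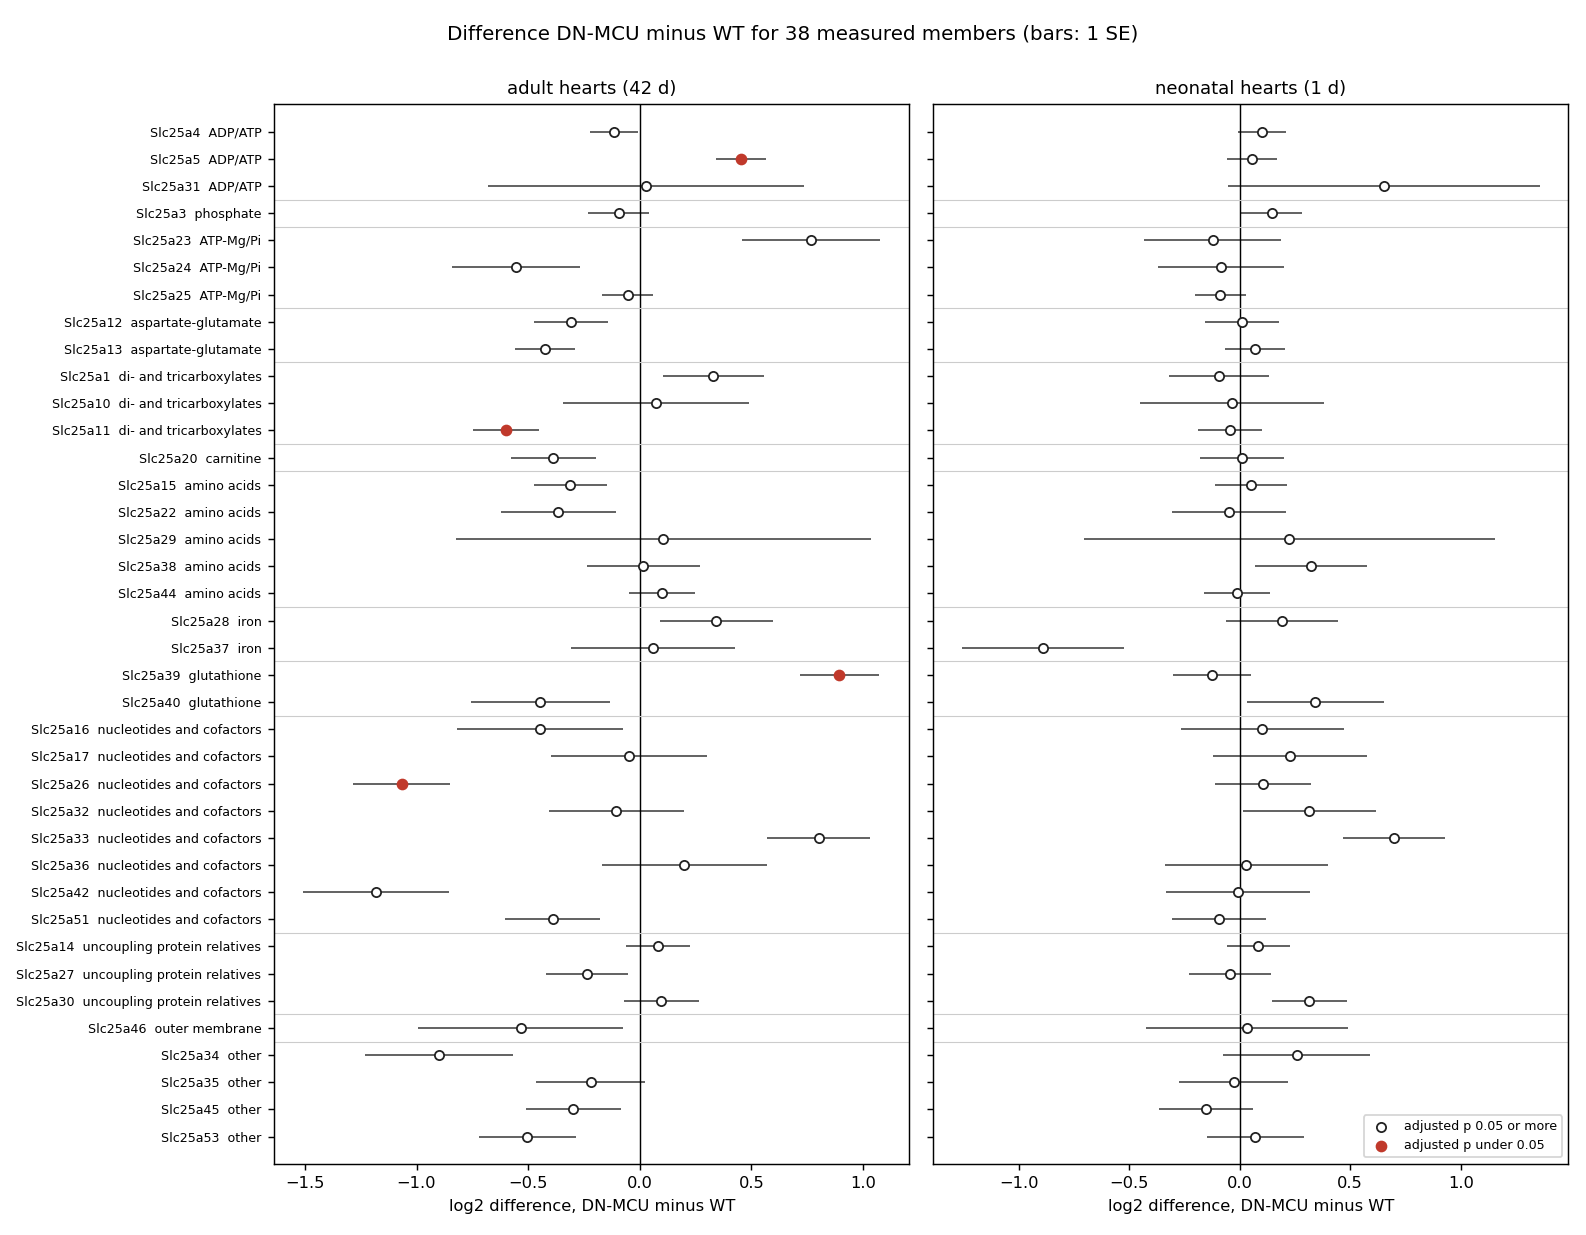
Log2 difference, DN-MCU minus WT, with its SE for the 38 tested carriers in adult and in neonatal hearts, with red for an adjusted p under 0.05. Adult values run from -1.18 to 0.89 and neonatal values from -0.89 to 0.70, and the 4 red points are all adult.

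Between WT adults and WT neonates 22 of the 38 carriers passed, 15 higher and 7 lower in adults. That is 57.9%, beside 45.1% of all probe sets (20.6% higher and 24.4% lower), so the age comparison called much of the array as well. One of the 7, Slc25a31, had passed the filter only through its neonatal values, and nothing is read from its call. The median age difference was 0.11 over members and -0.07 over all probe sets. When each array's median was subtracted, the median over all probe sets became -0.20 and that over members -0.02, so differences near 0 have no settled sign. Markers of other cells shifted with age as well. Of 5 macrophage markers 4 were higher in WT adults, with sums of 4057 to 4347 in WT adults and 1022 to 1215 in WT neonates. The 4 white adipocyte markers with a probe set summed to 1057 to 2933 in WT adults and 18.8 to 19.3 in WT neonates. All 3 tested neutrophil markers were lower in WT adults, with sums of 41.3 to 53.3 in WT adults and 509 to 1490 in WT neonates, as were 4 of 5 epicardial and mesothelial markers, whose sums overlapped. Both of the 2 tested erythroid markers were lower in WT adults, by -2.14 and -0.94, and 1 passed. The 6 erythroid markers with a probe set summed to 380 to 768 in WT adults and 738 to 1626 in WT neonates, which overlapped. The part of these cells in the age results, that of Slc25a37 included, was not tested. WT adults are also the comparison group of the adult genotype contrast, so the age and genotype values of a gene share those 3 arrays.

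Among carriers higher in WT adults, Slc25a29 differed most, with 6.86, 6.19 and 8.50 in WT adults and 3.46, 3.50 and 3.75 in WT neonates (3.62, SE 0.93, adjusted p = 0.00899). All 5 of its probe sets passed, at 2.77 to 4.03, and neonatal values of the brightest one were close to the filter level. The dimmest probe set averaged 3.19 over all arrays, under the filter level of 3.35, and the next dimmest averaged 3.62. With age differences of 2.77 or more, their neonatal signals lay near or under that level. The calls of these dimmest probe sets are therefore not counted as agreement. Slc25a34 read 10.54, 10.59 and 10.66 in WT adults and 7.64, 7.82 and 7.36 in WT neonates (2.99, SE 0.33, adjusted p = 4.39e-05). Slc25a33 read 9.89, 9.63 and 9.19 in WT adults and 6.77, 6.61 and 6.94 in WT neonates (2.79, SE 0.23, adjusted p = 5.31e-06). Adult and neonatal hearts did not overlap for any of these 3 genes. The next were Slc25a35 (2.67), Slc25a38 (2.31, SE 0.25), Slc25a26 (1.40, SE 0.22), Slc25a13 (1.38, SE 0.13) and Slc25a22 (1.35, SE 0.26), all with an adjusted p of 0.00162 or lower. Slc25a35 was near the filter level in neonates, at 3.41 ± 0.15 in WT.

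The malate-aspartate carriers were all higher in WT adults: Slc25a11 by 1.31 (SE 0.15, adjusted p = 4.58e-05) and Slc25a12 by 0.94 (SE 0.17, adjusted p = 0.00097), beside Slc25a13. Slc25a3 was higher by 0.76 (SE 0.14, adjusted p = 0.00113). Slc25a20 differed by 0.24 on its brightest probe set (adjusted p = 0.34) and by 0.93 on the other (adjusted p = 0.0006), which passed. The rest of the 15 were Slc25a42 (1.06), Slc25a27 (0.95, a relative of the uncoupling proteins), Slc25a51 (0.71, an NAD carrier) and Slc25a28 (0.71). A dimmer probe set of Slc25a27 gave 0.18 without passing (adjusted p = 0.295). The other 2 of Slc25a51 gave 0.22 (adjusted p = 0.42) and 2.29, of which the second passed (adjusted p = 0.000182). Slc25a28 (adjusted p = 0.0428), Slc25a51 (0.0189) and Slc25a42 (0.0223) each missed the threshold when any of several single arrays was left out, with highest adjusted p values of 0.14 without WT neonate array 3, 0.0729 without WT neonate array 2 and 0.0817 without WT adult array 3.

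Among the 7 lower in WT adults was the ADP/ATP isoform Slc25a5. Slc25a5 differed by -0.73 (SE 0.11, adjusted p = 0.000379) and was lower on all 8 probe sets, -1.35 to -0.63. Slc25a31, from whose call nothing is read, had 2.75, 2.96 and 2.55 in WT adults, all under the filter level. In WT neonates it read 4.42, 5.45 and 5.56. Slc25a4 differed by 0.16 on its brightest probe set (SE 0.11, adjusted p = 0.263). Its 4 probe sets ran from -0.56 to 0.21, with 2 of them above 0, and 1 passed, so the age result for this gene depends on the probe set read. Both measurable ATP-Mg/Pi carriers were lower: Slc25a24 read 8.39, 8.32 and 8.40 in WT adults and 10.24, 10.43 and 10.32 in WT neonates (-1.96, SE 0.29, adjusted p = 0.000289). Slc25a23 read 7.61, 7.12 and 6.62 in WT adults and 8.28, 8.85 and 8.53 in WT neonates (-1.43, SE 0.31, adjusted p = 0.0034). Slc25a37 was lower by -1.43 (SE 0.37, adjusted p = 0.00879), against 0.71 higher for Slc25a28. The peroxisomal carrier Slc25a17 (-1.35, SE 0.35, adjusted p = 0.00894) and Slc25a53 (-0.81, SE 0.22, adjusted p = 0.011) completed the set.

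**Figure D5:**
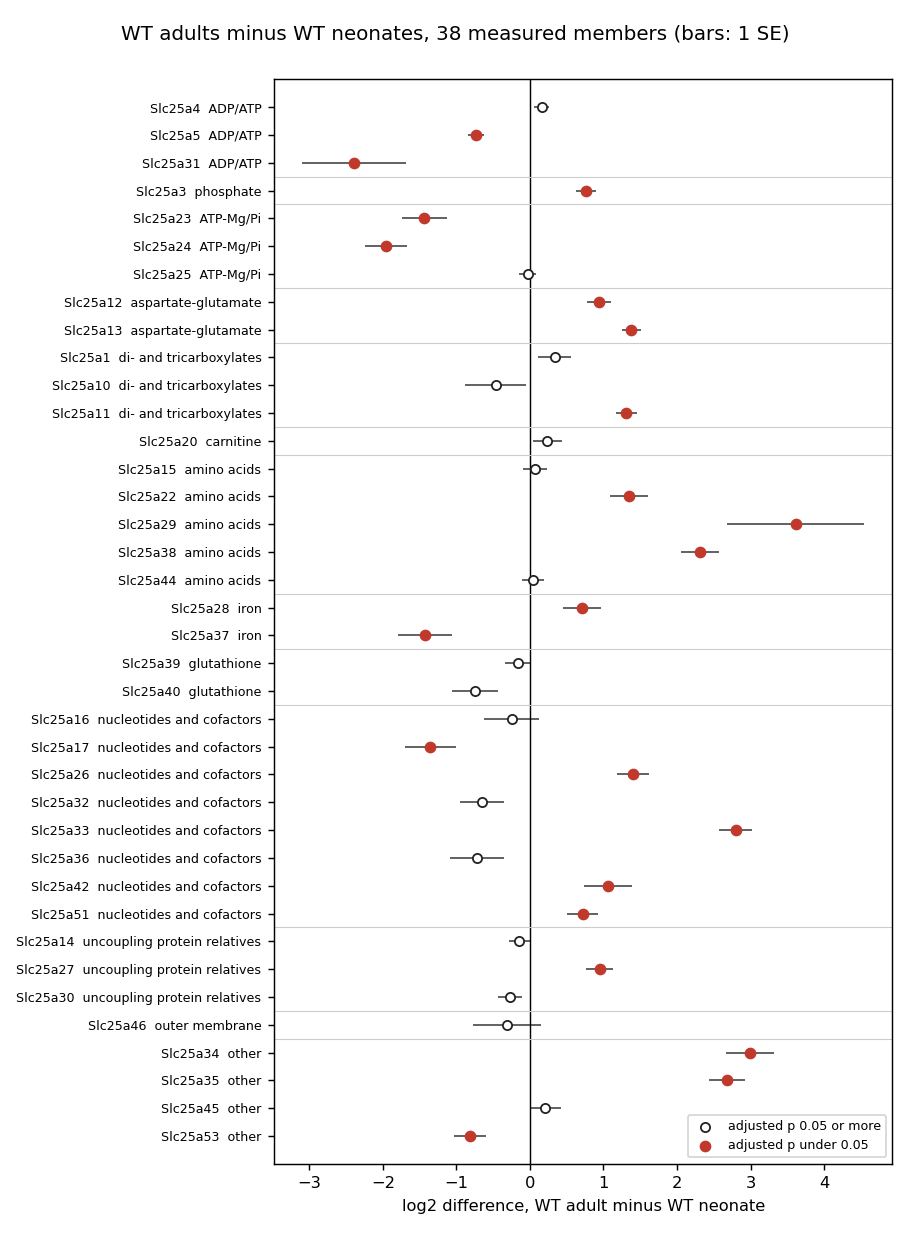
Log2 difference, WT adult minus WT neonate, with its SE for the 38 tested carriers, ordered by substrate group and gene number. Red marks an adjusted p under 0.05. Values run from -2.39 (Slc25a31) to 3.62 (Slc25a29), with 15 red points above 0 and 7 below.

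Set side by side, the 4 carriers called in adult genotype had these means in DN-MCU adults, WT adults and WT neonates. Slc25a11 averaged 12.64 ± 0.25 in DN-MCU adults, 13.24 ± 0.03 in WT adults and 11.93 ± 0.14 in WT neonates. Slc25a26 averaged 7.79 ± 0.34 in DN-MCU adults, 8.86 ± 0.37 in WT adults and 7.45 ± 0.06 in WT neonates. Slc25a5 averaged 14.05 ± 0.06 in DN-MCU adults, 13.60 ± 0.09 in WT adults and 14.33 ± 0.04 in WT neonates. Slc25a39 averaged 14.39 ± 0.35 in DN-MCU adults, 13.49 ± 0.13 in WT adults and 13.66 ± 0.09 in WT neonates. No relation between the age and genotype differences is read from these means, which share the WT adult arrays.

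Enzymes and proteins that work with these carriers were counted in 8 lists, and in neonates none of their genes passed, with 2 folate genes at an unadjusted p under 0.05. In DN-MCU neonates Mthfd2 was 2.36 higher than in WT neonates (SE 0.34, adjusted p = 0.0757) and Aldh1l2 2.12 higher (SE 0.57, adjusted p = 1). Mthfd2 passed there with array weights (0.00158) and without DN-MCU neonate array 3 (0.0329). In adults 0 of 4 tested uncoupling and MTCH proteins passed (median -0.32), and 0 of 5 other inner-membrane carriers such as the pyruvate carriers and sideroflexins (median -0.12). Among 5 tested ATP-linked partners 1 was called, Ckmt1, the ubiquitous mitochondrial creatine kinase, with 7.05, 6.79 and 7.71 in DN-MCU adults and 3.07, 3.00 and 2.90 in WT adults. The 9 hearts of the other groups were all under the filter level, at 2.77 to 3.07, so Ckmt1 was tested only because it was high in DN-MCU adults, and nothing is read from its call. All 8 lists were chosen with earlier results of these data known, so nothing is read from the share of a list that was called. The folate and glycine list had 4 of 8 tested genes higher and 0 lower, with a median of 1.13, beside 2.82% of all probe sets higher and 1.95% lower. These were Mthfd2 (7.20, SE 0.34), Shmt1 (3.56, SE 0.28), Aldh1l2 (3.20, SE 0.57, adjusted p = 0.00995) and Mthfd1l (1.49, SE 0.23, adjusted p = 0.00392), enzymes of one-carbon metabolism. With adult arrays alone Aldh1l2 (0.121) and Mthfd1l (0.0518) did not pass. The mitochondrial folate carrier Slc25a32 read 5.90, 5.69 and 4.99 in DN-MCU adults and 4.96, 5.82 and 6.11 in WT adults (-0.11, SE 0.30, adjusted p = 0.912). Its other tested probe set had the opposite sign (0.35, SE 0.27, adjusted p = 0.553).

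Of 7 tested enzymes of ornithine, arginine, glutamate and branched-chain amino acid metabolism, 1 was higher and 1 lower in DN-MCU adults, with a median of -0.50. Aldh18a1, which makes the precursor of proline and ornithine from glutamate, differed by 3.02 (SE 0.31, adjusted p = 0.000412). Oat, ornithine aminotransferase, differed by -0.52 (SE 0.13, adjusted p = 0.0468). That call ended with adult arrays alone (0.336), under both blocks (0.149 and 0.117), on subtracting array medians (0.0529) and without any 1 array (0.0586 to 0.177) other than DN-MCU adult 2 or 3. The ornithine carrier Slc25a15 and the arginine carrier Slc25a29 did not pass beside them. The genotype effect differed between adults and neonates for Mthfd2, Shmt1 and Aldh18a1 (adjusted p under 0.05, limma), and Ckmt1 was the other gene of these lists called there.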

How the data were processed

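Total RNA (500 ng per sample) was labelled as biotinylated cRNA for Affymetrix 3′ arrays, per the labels' protocols. The authors deposited 1 table of log2 signals for 12 arrays. The log2 scale was read from the values. How the arrays were normalized is not given in these sources. The submitters' processing notes name Partek, with no version or role. Of 45101 probe sets, 34945 had 1 gene symbol, 932 several and 9160 none, and 64 controls were removed.

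The filter kept 24176 probe sets, those with at least 3 of 12 values over log2 3.35, the median of the table. Signals near that level are close to background. One model with a mean per group was fitted to the 12 arrays (limma 3.58.1, R 4.3.3), with p-values adjusted (Benjamini-Hochberg) over all probe sets kept in each comparison. These p-values reflect only the spread between hearts labelled as separate replicates, and 3 arrays per group limit the precision. The fit was tested on simulated data. Tables and figures were made with Python 3.11.15 and matplotlib 3.10.9.

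Members and lists were chosen with earlier results of these data known. Named with values were all members of the 6 substrate groups, every other member that passed between genotypes or whose adult groups were separated by 0.5 or more, the 8 largest age calls per direction, and up to 4 called genes per partner list. Slc25a1, Slc25a3, Slc25a32, Slc25a34 and Slc25a40 were named with values outside the adult rule, and the motifs were chosen, after values were seen.

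Deviations from group means were correlated to check whether replicate numbers pair the arrays. Same-numbered neonates gave 0.133, 0.223 and 0.283, and same-numbered adults gave -0.381, 0.410 and -0.428. No label says what the number marks. The main fit took no arrays as paired, so its p-values leave out any such pairing. Blocks on the replicate number were run only as alternatives. Under the neonatal block 0 carriers were called higher and 0 lower in adults. Alternatives covered normalization, filters, arrays fitted, weights, blocks, probe set choice and leaving out arrays.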

Additional observations from a re-analysis of the deposited data

How the results depend on the processing

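Counts are of the 38 tested carriers, except that 37 were tested without cross-matching probe sets, 44 with no filter and 26 with the stricter filter. In adults the number higher, 2, was 1 on quantile normalization and with the second brightest probe set, and 0 with only the groups compared, with the within-age replicate block and with the neonatal replicate block. The number lower, 2, was 1 on quantile normalization, with the within-age replicate block and without cross-matching probe sets, 0 with only the groups compared and with the neonatal replicate block, 5 with array weights, and 6 without both DN-MCU adult 3 and WT adult 1. Adult calls over all probe sets, 4.77% at first, were 8.42% and 13.0% in these last settings. Leaving out 1 array at a time gave 0 to 3 higher and 0 to 5 lower.

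The difference of effects, with 0 called, gained 1 higher with array weights, with the second brightest probe set and without cross-matching probe sets, and 2 without both arrays. It gained 3 lower with array weights and 3 without both arrays. Leaving out 1 array gave 0 to 1 in each direction, and no value exists with only the groups compared. Neonatal counts were 0 in each direction when any array was left out. Age gave 12 to 15 higher and 6 to 10 lower when 1 array was left out, and 14 and 7 under either replicate block.

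The setting without both arrays, and the one without cross-matching probe sets, were chosen after seeing the data. Over single genes, 3432 values kept their side of the threshold and either kept direction or shifted by less than the gene's largest group SD. Another 70 lost the call and 48 gained one. Without a call, 8 changed direction by at least that SD, and 0 reversed as calls. The causes were not tested. The fit of adult arrays alone has both fewer arrays and the adults' larger spread, and their parts were not separated.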
